A study of Mus musculus with 28 samples.

Results

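The 39 genes described here are a named list: 20 cytosolic tRNA synthetases, 8 enzymes of amino acid synthesis, 4 amino acid transporters and 7 stress factors. Each of 7 comparison tables held 22919 genes, and all 39 members were present. They were found by symbol in the tables that name genes. Rows of shRai1 against shCtrl in vehicle carry no names and were identified by mean count. The list names genes by known roles, and it was put together with earlier results of these data known. Nascent RNA was measured by Bru-seq, in which bromouridine is fed to cells, taken up by RNA as it is made, and used to pull that RNA out for sequencing. The cells were mixed forebrain cultures of neurons, astrocytes and oligodendrocyte precursors from CD1 mouse embryos at embryonic day 18. On day in vitro 14 the cultures received lentivirus, which carried either the control shRNA called shCtrl or the Rai1 shRNA called shRai1. On day 17 each arm was exposed for 4 hours to water as vehicle, to 1 µM tetrodotoxin (TTX), which blocks sodium channels and action potentials, or to 20 µM bicuculline (BIC), which blocks GABA-A receptors and so raises firing. Bromouridine (2 mM) was present for the final 20 minutes. All 6 groups were infected, so no group shows the cells without lentivirus. Each group had 3 libraries, apart from shCtrl vehicle and shCtrl BIC with 2 each. By their titles these were replicates 1 and 2 in shCtrl vehicle and replicates 2 and 3 in shCtrl BIC. What the replicate number marks is not given in the sources used here.

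Transfer RNA synthetases attach each amino acid to its tRNA. When uncharged tRNA, misfolded protein or other stress activates an eIF2 alpha kinase, general translation falls while the transcription factor ATF4 is made. ATF4 pairs with C/EBP proteins and binds composite C/EBP-ATF elements at genes for amino acid import, amino acid synthesis and tRNA charging, so these genes often move together. In neurons the same kinases also take part in synaptic plasticity and memory.

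Values reach this account as summaries over libraries, with no value per library. A log2 change, its standard error (SE) and its adjusted p are those of the authors' deposited tables, made with DESeq2, unless they are said to be computed here. A gene is called when its adjusted p is under 0.05. The labels do not say whether libraries of a group came from separate cultures, so the p-values measure the spread between these libraries. In mixed cultures, fewer cells of a type and less RNA per cell cannot be told apart.

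Over the whole series, 21192 genes had a test and 12333 had a mean normalized count of at least 50, a level used below as that of well measured genes. Of the members, 38 reached it, with means from 108 to 4121, and the exception was Nupr1 at 7.65. The nascent RNA of Rai1 itself was not called lower in the arm labelled shRai1, with deposited log2 changes of 0.16 in vehicle, -0.12 in TTX and 0.03 in BIC. An shRNA acts on finished RNA, so nascent reads do not check the knockdown. Of the labelled cell types, all 8 neuron markers, 5 of 6 astrocyte markers and all 6 oligodendrocyte lineage markers reached a mean count of 50, against 1 of 5 microglia markers.

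Levels per gene length were available as pooled FPKM for the 3 shCtrl conditions, each with the bounds the authors' deposited table gives. In vehicle the members ran from 3.06 FPKM for Nupr1 to 147 for Slc3a2, with a median of 16.1, beside a median of 10.3 over 12311 well measured genes. Slc3a2, the heavy chain shared by several amino acid exchangers, stood first. Ddit4, an inhibitor of the growth kinase mTORC1, followed at 125 FPKM, then Slc7a5 at 52.7 and Chac1 at 48.3. Among synthetases the alanyl enzyme Aars was the highest at 34.4 FPKM and the leucyl enzyme Lars the lowest at 7.10. Neighbours in this order could overlap: the bounds of Slc3a2, 113 to 181, met those of Ddit4, 96.5 to 154, and those of Aars, 26.6 to 42.3, held the levels of Gars at 29.8, Cebpb at 29.1 and Nars at 26.7.

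**Figure D1:**
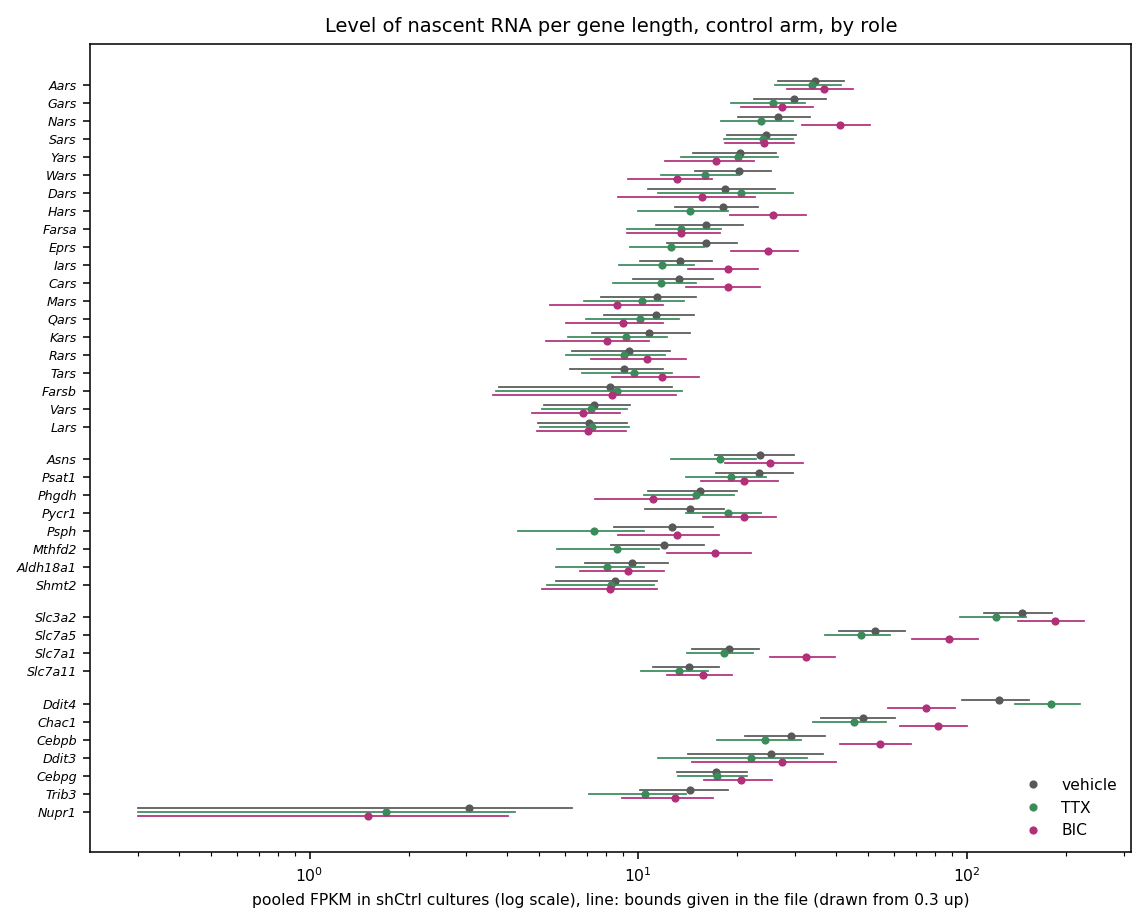
Pooled FPKM on a log axis for the 39 genes in shCtrl cultures, grouped by role and ordered by the vehicle level, with points for vehicle, TTX and BIC and lines for the bounds given in the authors' deposited table. Slc3a2 and Ddit4 stand highest, and the bounds of BIC lie wholly above those of vehicle for Slc7a5, Slc7a1, Chac1 and Cebpb and wholly below for Ddit4.

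Bicuculline raised more members than it lowered. In shCtrl 20 of 39 members rose and 4 fell, where 17.4% of all genes with an adjusted p rose and 17.0% fell. In shRai1 21 rose and 2 fell, where 21.3% rose and 21.3% fell. Among well measured genes the shares that rose were 21.5% in shCtrl and 26.9% in shRai1. The members' median log2 change was 0.30 in shCtrl and 0.37 in shRai1, beside -0.04 and -0.03 over well measured genes. The arms share no library under this comparison, and 22 members were called in both with the same sign, 91.7% of those called in shCtrl and 95.7% of those called in shRai1. Over all genes these shares were 90.4% and 69.8%. Cell type markers moved in the same comparison. Of 8 neuron markers 4 rose in each arm (Snap25, Map2, Gad1 and Gad2) and 3 fell (Rbfox3, Tubb3 and Slc17a7), with log2 changes in shCtrl from -0.72 for Tubb3 to 1.47 for Gad2. Of 5 microglia markers Cx3cr1 and Csf1r rose in shCtrl, by 0.92 and 1.11, and Cx3cr1 alone in shRai1. Of 6 oligodendrocyte lineage markers Olig1 and Mbp fell in shCtrl, by 0.53 and 0.49, and Mbp alone in shRai1, by 0.64. Of 6 astrocyte markers Aqp4 fell in shCtrl, by 0.48, and Slc1a3 rose in shRai1, by 0.19. These markers were named after their values were seen, and their part in the members' values was not tested. Averaged over the arms, as computed here with a Wald test, 21 members rose and 4 fell, where 26.5% and 28.8% of 15237 genes did so.

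Of the 20 synthetases, 10 rose with BIC in both arms, 1 fell in both, and 9 were called in neither. Taking each arm by itself, 21.5% of well measured genes rose and 22.1% fell in shCtrl, and 26.9% and 28.8% in shRai1. The largest rise was that of Hars, the histidyl enzyme, with a log2 change of 1.17 (SE 0.11, adjusted p = 7.89e-26) in shCtrl and 1.32 (SE 0.08, adjusted p = 3.69e-53) in shRai1. Its pooled level went from 18.1 FPKM in shCtrl vehicle to 25.7 in BIC. Cars, the cysteinyl enzyme, rose by 1.05 (SE 0.09) in shCtrl and 0.84 (SE 0.07) in shRai1, which is 2.06-fold and 1.79-fold, and its level went from 13.3 to 18.8 FPKM in shCtrl. Nars, the asparaginyl enzyme, rose by 0.97 and 0.95 in shCtrl and shRai1, with adjusted p of 2.05e-25 and 3.33e-39. The threonyl enzyme Tars rose by 0.95 and 0.92 in the same order of arms. Iars, the isoleucyl enzyme, rose by 0.84 and 0.86. The log2 FPKM ratios in shCtrl were smaller, at 0.62 for Nars, 0.38 for Tars and 0.47 for Iars.

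Eprs carries both the glutamyl and the prolyl activity. It rose by 0.75 (SE 0.07) in shCtrl and 0.88 (SE 0.06) in shRai1, and its level went from 16.1 to 24.9 FPKM in shCtrl. Smaller rises were those of the glycyl enzyme Gars (0.62 and 0.55), Aars (0.42 and 0.42), Lars (0.41 and 0.28) and the tyrosyl enzyme Yars (0.37 and 0.29), shCtrl first. For Gars, Lars and Yars the pooled FPKM did not move the same way, since Gars stood at 29.8 in vehicle and 27.3 in BIC, Lars at 7.10 and 7.05, and Yars at 20.4 and 17.3. The cause of that difference between the authors' own summaries was not tested. Yars and Cars are each listed under an interval that holds another annotated gene, and how reads of overlapping genes were counted is not given in the sources used here.

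Dars, the aspartyl enzyme, went the other way. It fell by 0.38 (SE 0.11, adjusted p = 0.00355) in shCtrl and by 0.40 (SE 0.09, adjusted p = 5.03e-05) in shRai1, and its level was 18.4 FPKM in vehicle and 15.6 in BIC. The 9 synthetases called in neither arm were Farsa, Farsb, Kars, Mars, Qars, Rars, Sars, Vars and Wars, which charge phenylalanine (2 subunits), lysine, methionine, glutamine, arginine, serine, valine and tryptophan. Their log2 changes lay between -0.15 and 0.15 in shCtrl and between -0.19 and 0.13 in shRai1, with SE of at most 0.17.

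Enzymes of amino acid synthesis rose with BIC in 4 of 8 cases in each arm, where 21.5% of well measured genes rose in shCtrl and 26.9% in shRai1. In shCtrl 1 of the 8 fell, where 22.1% of well measured genes did. Asns, which makes asparagine, rose by 0.76 (SE 0.10, adjusted p = 2.5e-12) in shCtrl and 0.78 (SE 0.08, adjusted p = 2.96e-21) in shRai1, while its log2 FPKM ratio in shCtrl was 0.10. Mthfd2, a mitochondrial folate enzyme, rose by 0.69 and 0.61, shCtrl first. Psat1 and Psph, the second and last steps of serine synthesis, rose by 0.48 and 0.43 in shCtrl and by 0.66 and 0.59 in shRai1. The log2 FPKM ratio of Psph in shCtrl was 0.05. Phgdh, the first step of serine synthesis, fell by 0.39 (SE 0.14, adjusted p = 0.0232) in shCtrl. Its value in shRai1 was -0.16 (SE 0.12, adjusted p = 0.271), and the difference between arms did not pass. The level of Psat1 was 23.3 FPKM in vehicle and 21.0 in BIC, against the direction of its log2 change. Shmt2, Aldh18a1 and Pycr1 were not called, with log2 changes from 0.12 to 0.30 in shCtrl and 0.08 to 0.27 in shRai1.

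All 4 transporters rose in both arms, where 21.5% of well measured genes rose in shCtrl and 26.9% in shRai1. Slc7a5, which with Slc3a2 carries leucine and other large neutral amino acids, rose by 0.74 (SE 0.11) in shCtrl and 0.70 (SE 0.09) in shRai1, from 52.7 to 88.3 FPKM in shCtrl. Slc7a1, which carries arginine and lysine, rose by 0.74 and 0.69. Slc7a11, the cystine and glutamate exchanger, rose by 0.46 and 0.49, with a log2 FPKM ratio of 0.14 in shCtrl, and Slc3a2 rose by 0.28 and 0.37. The FPKM bounds of BIC lay above those of vehicle for Slc7a5 and Slc7a1, 2 of the 5 members whose bounds did not overlap (with Chac1, Cebpb and Ddit4). Over 12311 well measured genes the bounds did not overlap for 6.20%.

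Of the 7 stress factors 2 rose and 2 fell with BIC in shCtrl, where 21.5% of well measured genes rose and 22.1% fell. These counts are near the background. In shRai1 3 rose and 1 fell, where 26.9% rose and 28.8% fell. Cebpb, a C/EBP factor, rose by 0.92 (SE 0.19, adjusted p = 1.05e-05) in shCtrl and 1.03 (SE 0.16, adjusted p = 3.88e-10) in shRai1, from 29.1 to 54.4 FPKM. Chac1, which degrades glutathione, rose by 0.76 and 0.62, from 48.3 to 81.4 FPKM. Ddit4 fell by 0.82 (SE 0.12) and 0.64 (SE 0.10), from 125 to 75.0 FPKM. Ddit3, which encodes CHOP, fell by 0.46 (SE 0.17, adjusted p = 0.0207) in shCtrl and had a value of -0.30 (SE 0.14, adjusted p = 0.061) in shRai1. The pooled FPKM of Ddit3 was 25.4 in vehicle and 27.3 in BIC, so the authors' summaries differ in direction. Ddit3 and Mars are listed under the same interval but have mean counts of their own, 388 and 319. Trib3, a pseudokinase that binds ATF4, had -0.08 (SE 0.17) in shCtrl and rose by 0.38 (SE 0.14, adjusted p = 0.0194) in shRai1. For neither Ddit3 nor Trib3 did the difference between arms pass. Cebpg, a partner of ATF4, was called only in the average over arms, at 0.20 (SE 0.08, adjusted p = 0.0178). Nupr1, a small stress-induced nuclear protein, was barely detected and had an SE of 0.42.

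**Figure D2:**
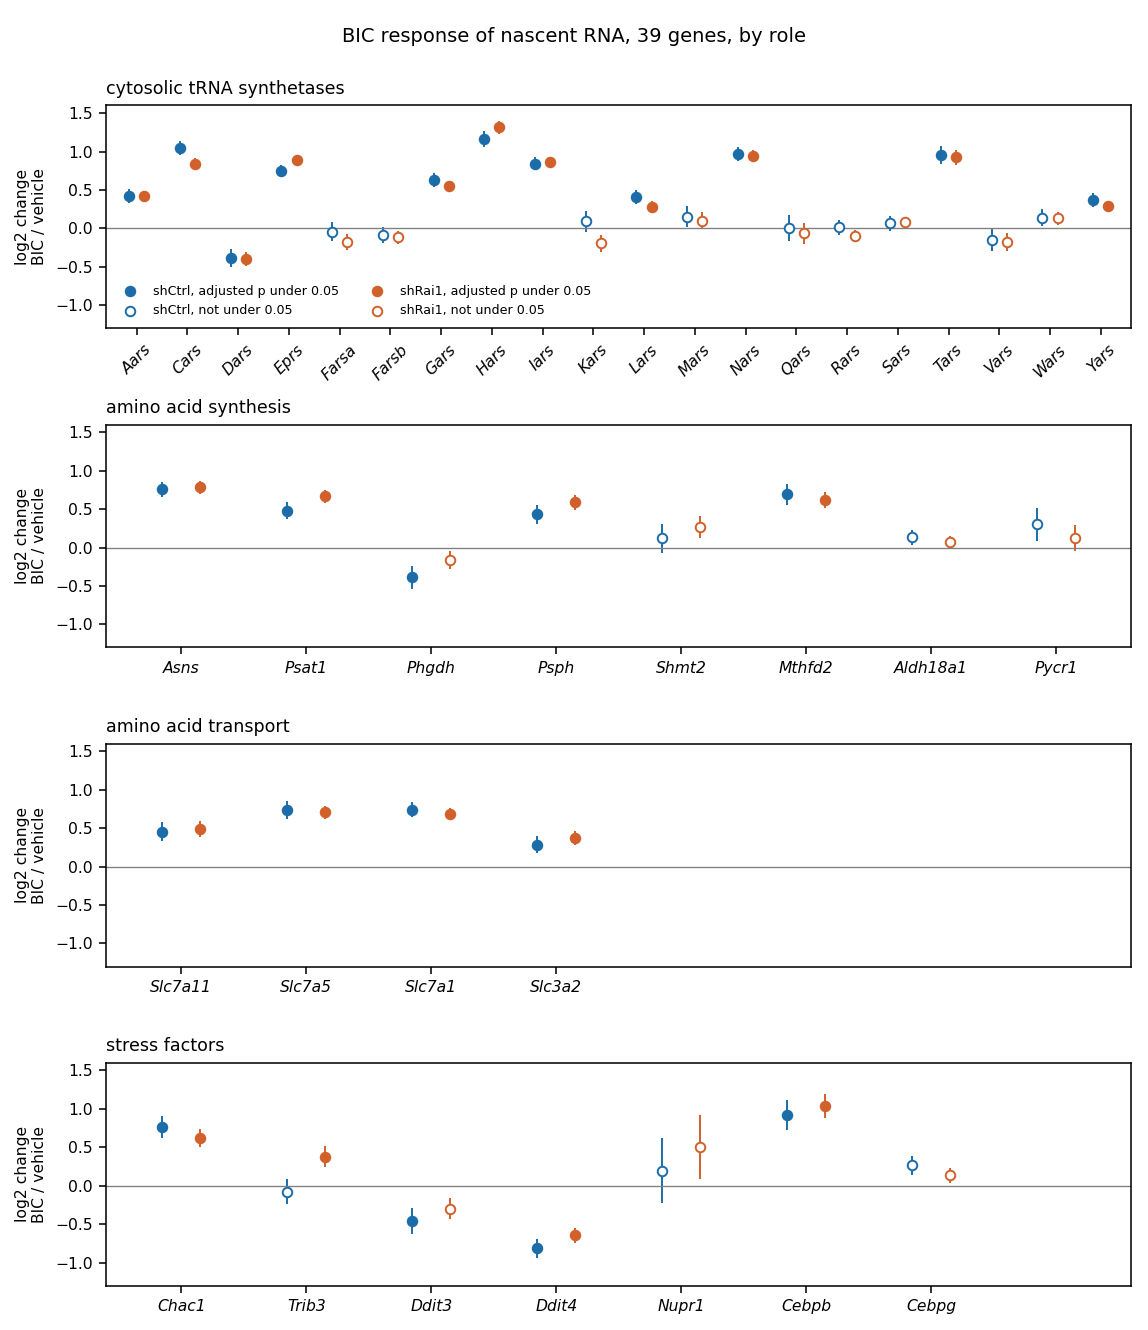
Deposited log2 change between BIC and vehicle for the 39 genes by role, in shCtrl and shRai1, with bars of 1 SE; filled points have an adjusted p under 0.05. The 10 synthetases called higher and all 4 transporters lie above 0 in both arms, while Dars and Ddit4 lie below 0 in both.

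The composite element was searched for in promoters of the members, taken from RefSeq on GRCm38.p6 as 250 bases before to 50 after the start of transcription. Entries matched 31 members, 30 by symbol and Mars by another symbol. Cars, Hars, Lars, Nars, Rars, Vars, Wars and Slc7a5 had no matching entry in the promoter set used here, so they were not searched. The letters TGATGNAA on either strand were found in 11 of 31 members (35.5%), against 3.97% of 32851 promoters. Among the 9293 well measured genes with a promoter entry under the same symbol, the share was 2.64%. The 11 were Aars, Gars, Iars, Tars, Yars, Asns, Pycr1, Slc7a11, Chac1, Trib3 and Nupr1. The list contains genes known as ATF4 targets, so a high share was built into it. A match describes letters and shows no binding.

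The windows below, written 5′ to 3′ on the strand of the gene, show the element in 4 synthetases and in 4 other members, with its letters in capitals. Where the match is on the other strand, the capitals are its reverse complement.
Gars: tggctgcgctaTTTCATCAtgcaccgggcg
Iars: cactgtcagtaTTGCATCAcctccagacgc
Tars: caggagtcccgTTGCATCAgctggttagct
Yars: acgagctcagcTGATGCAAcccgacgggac
Asns: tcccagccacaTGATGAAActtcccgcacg
Slc7a11: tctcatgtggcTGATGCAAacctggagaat
Chac1: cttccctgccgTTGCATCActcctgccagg
Trib3: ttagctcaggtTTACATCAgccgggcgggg

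On GRCm38.p6 the Gars window is chr6:55037960-55037989, on the plus strand. Those of Iars (chr13:49682126-49682155) and Yars (chr4:129189895-129189924) are also on the plus strand, as is that of Chac1 (chr2:119351038-119351067). Those of Tars (chr15:11399655-11399684), Asns (chr6:7693214-7693243), Slc7a11 (chr3:50443661-50443690) and Trib3 (chr2:152344028-152344057) are on the minus strand. The capitals begin 30 bases before the start in Gars, 15 in Tars, 23 in Asns, 66 in Slc7a11 and 193 in Chac1. They begin at transcribed base 8 in Iars, 4 in Yars and 15 in Trib3, which puts them after the start. Slc7a11 holds a further match in the same promoter.

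Among the 13 synthetases with a promoter entry, the 5 with the element (Aars, Gars, Iars, Tars and Yars) all rose with BIC in both arms by the deposited log2 change. By pooled FPKM in shCtrl, Gars and Yars went the other way, at log2 ratios of -0.13 and -0.24, and Aars had 0.09. Of the other 8, Eprs rose, Dars fell, and 6 were called in neither arm. Outside the synthetases, Asns, Slc7a11 and Chac1 hold the element and rose in both arms. Trib3 holds it and was called higher in shRai1 but not in shCtrl, though the difference between arms did not pass. Pycr1 and Nupr1 hold it and were not called, while Cebpb, Mthfd2, Psat1, Psph, Slc7a1 and Slc3a2 rose without it. Over well measured genes with a promoter entry, 3.28% of those that rose with BIC in shCtrl held the element. It was in 2.42% of those that fell and 2.48% of the rest. No test was made on the members, which were listed for their known roles.

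**Figure D3:**
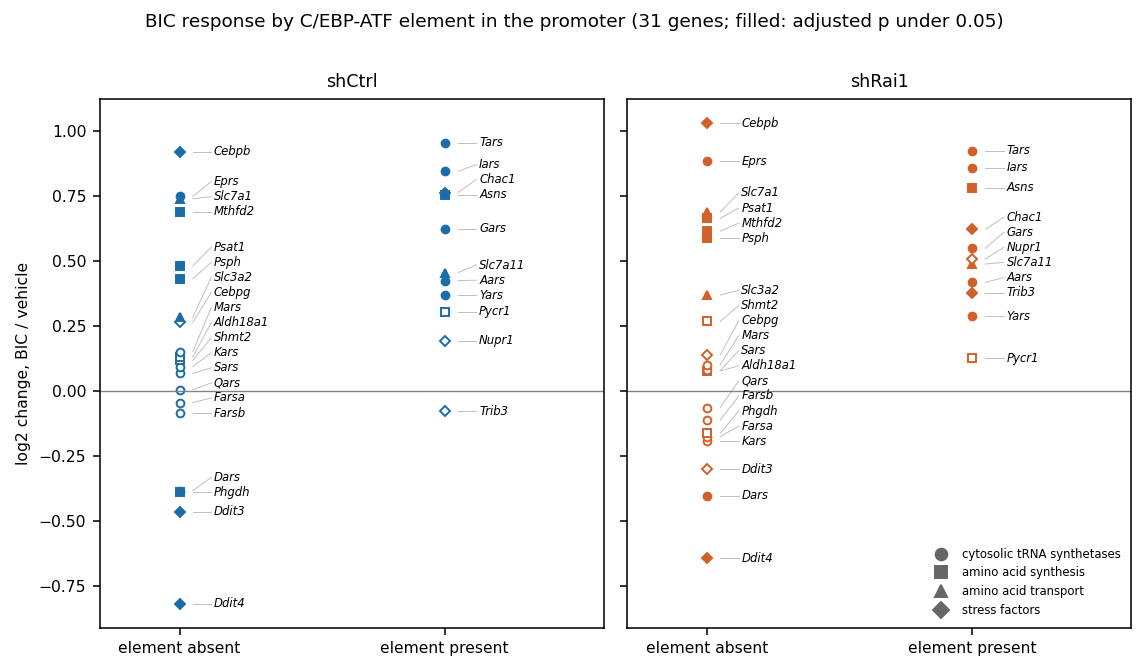
Deposited log2 change between BIC and vehicle in shCtrl (left) and shRai1 (right) for the 31 members with a RefSeq promoter, by absence or presence of TGATGNAA on either strand; shapes give the role and filled points have an adjusted p under 0.05. All 5 synthetases with the element lie above 0 in both panels. Trib3 also holds it and lies below 0 in shCtrl, at -0.08, and members without the element lie on both sides of 0.

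Tetrodotoxin lowered more members than it raised. In shCtrl 10 of 39 fell and 2 rose, where 14.9% of all genes with an adjusted p fell and 11.8% rose. In shRai1 17 fell and 3 rose, where 16.8% fell and 13.7% rose. Among well measured genes 18.2% fell and 13.8% rose in shCtrl, and 20.7% fell and 15.6% rose in shRai1. These genes too fell more often than they rose, and the members departed less from them in shCtrl than in shRai1. The members' median log2 change was -0.05 in shCtrl and -0.20 in shRai1, beside -0.01 in each arm over well measured genes. Cell type markers, named after their values were seen, moved here too. In shCtrl 4 of 8 neuron markers fell (Snap25, Tubb3, Gad1 and Gad2, the lowest at -0.95 for Gad1) and Rbfox3 rose, 2 of 6 astrocyte markers fell, and 4 of 6 oligodendrocyte lineage markers fell while Mbp rose. In shRai1 3 neuron markers fell, 1 astrocyte marker rose and 1 fell, and 4 oligodendrocyte lineage markers rose. Their part in the members' values was not tested. By pooled FPKM, the bounds of TTX and vehicle overlapped for all 39 members in shCtrl, where 2.01% of well measured genes had bounds that did not. Averaged over arms as computed here, 16 fell and 2 rose, where 21.5% and 18.9% of genes did so.

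The transporters fell in all 4 cases and both arms, where 18.2% of well measured genes fell in shCtrl and 20.7% in shRai1. Slc7a5 fell by 0.50 (SE 0.10, adjusted p = 1.11e-05) in shCtrl and by 0.89 (SE 0.09, adjusted p = 2.5e-21) in shRai1. By pooled FPKM in shCtrl its log2 ratio was -0.14. Slc7a1 fell by 0.40 and 0.76, with a log2 FPKM ratio of -0.05 in shCtrl, Slc7a11 by 0.37 and 0.32, with a log2 FPKM ratio of -0.11, and Slc3a2 by 0.28 and 0.30, shCtrl first. The arms differed most for Slc7a5, by -0.39 (95% interval -0.66 to -0.13), and Slc7a1, by -0.36 (95% interval -0.59 to -0.13). Neither difference passed the Wald test computed here, with adjusted p of 0.141 and 0.101.

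Synthetases with a called fall numbered 3 of 20 in shCtrl (Eprs, Hars and Nars) and 9 of 20 in shRai1, which added Aars, Cars, Farsa, Gars, Iars and Sars. Of well measured genes 18.2% and 20.7% fell, so the count in shCtrl is near the background. Eprs fell by 0.56 (SE 0.07, adjusted p = 1.78e-15) in shCtrl and 0.54 (SE 0.06, adjusted p = 2.12e-18) in shRai1, and its level went from 16.1 to 12.6 FPKM in shCtrl. Hars fell by 0.54 and 0.41, and Nars by 0.27 and 0.29. Dars rose by 0.32 (SE 0.10, adjusted p = 0.00698) in shCtrl and 0.42 (SE 0.09, adjusted p = 2.12e-05) in shRai1, the opposite of its BIC response. The log2 FPKM ratios in shCtrl were smaller, at -0.33 for Hars, -0.17 for Nars and 0.16 for Dars.

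The added falls in shRai1 were small, at 0.34 for Cars, 0.35 for Sars, 0.28 for Farsa, 0.26 for Gars, 0.23 for Iars and 0.20 for Aars. Their values in shCtrl ran from -0.16 for Sars to 0.04 for Aars. None of these 6 differences between arms passed, the nearest being Cars at -0.33 (95% interval -0.55 to -0.11, adjusted p = 0.139). The 10 synthetases that were not called in shRai1 had log2 changes between -0.17 and 0.08.

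In amino acid synthesis, Asns fell by 0.27 in shCtrl and 0.33 in shRai1, and Psat1 by 0.31 and 0.25. Mthfd2 had -0.26 (SE 0.12, adjusted p = 0.106) in shCtrl and fell by 0.55 (SE 0.11, adjusted p = 4.14e-06) in shRai1. Aldh18a1, which makes the precursor of proline, had -0.04 (SE 0.09) in shCtrl and fell by 0.51 (SE 0.08, adjusted p = 3.28e-10) in shRai1. Phgdh, Psph, Shmt2 and Pycr1 were called in neither arm. Ddit4 rose by 0.51 (SE 0.10) in shCtrl and 0.76 (SE 0.09) in shRai1, from 125 to 180 FPKM in shCtrl. Chac1, Ddit3, Cebpb, Cebpg and the low-count Nupr1 were not called, with values from -0.24 to 0.06 in shCtrl and -0.20 to 0.12 in shRai1.

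**Figure D4:**
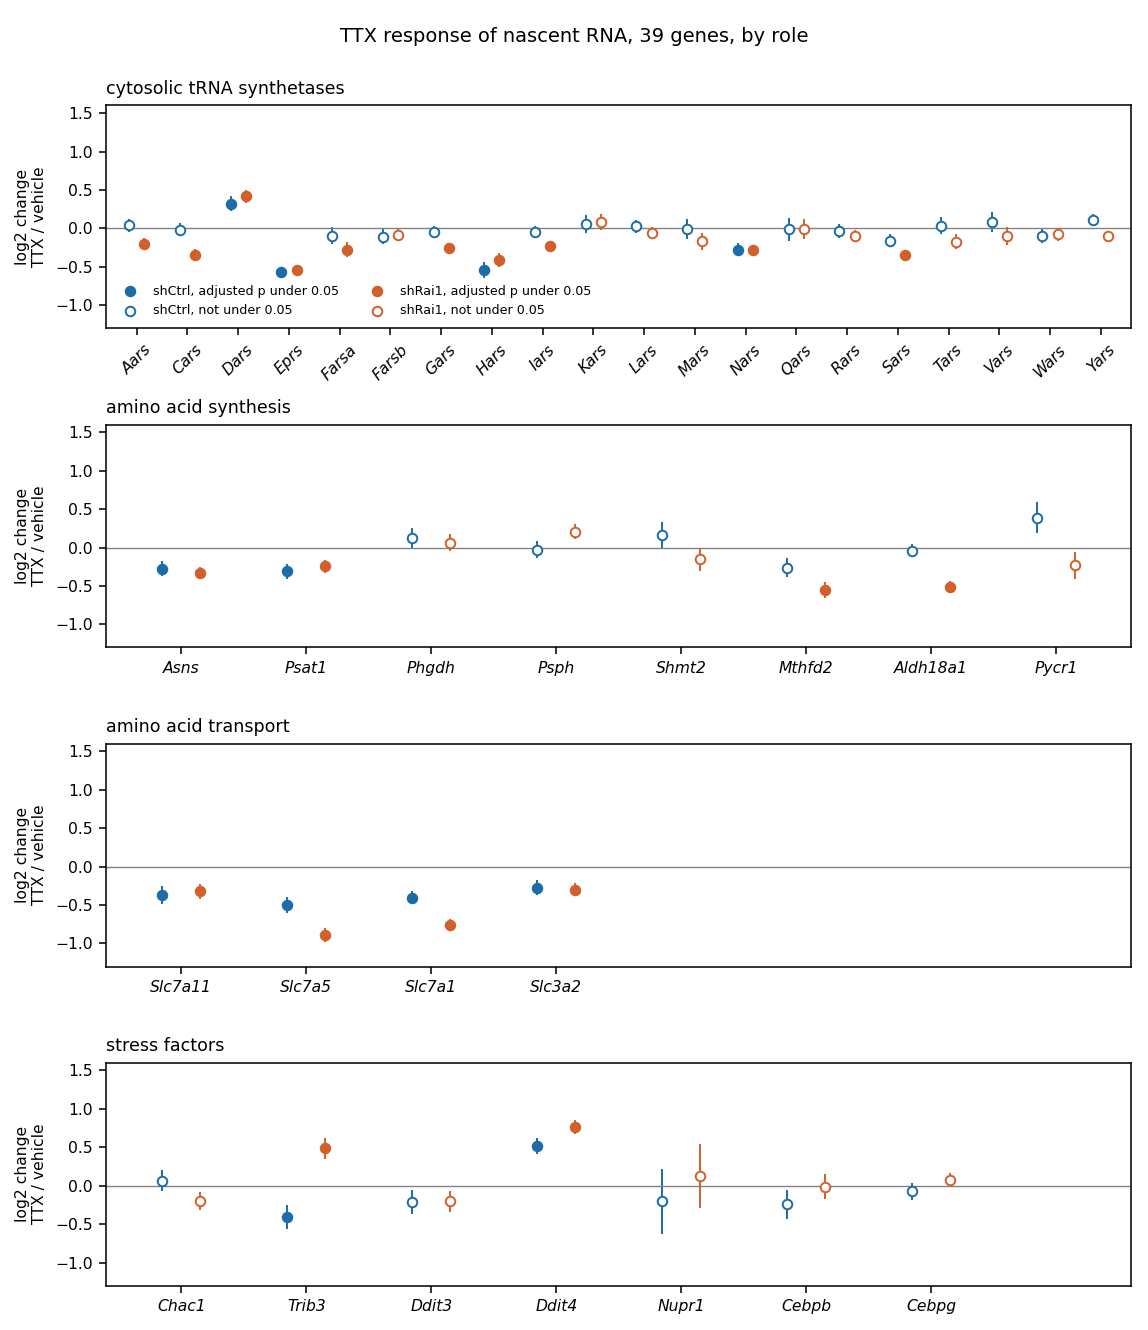
Deposited log2 change between TTX and vehicle for the 39 genes by role, in shCtrl and shRai1, with bars of 1 SE; filled points have an adjusted p under 0.05. The 4 transporters lie below 0 in both arms, Dars and Ddit4 lie above 0 in both, and Trib3 lies on opposite sides of 0.

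The responses to both drugs are measured against the same vehicle libraries, so they were set against each other by their difference, in which vehicle drops out. Nascent RNA was higher in BIC than in TTX for 19 members and lower for 3 in shCtrl, where 20.9% and 19.0% of genes were so. In shRai1 it was higher for 22 and lower for 2, where 24.6% and 23.7% were so. The SE computed here is an upper bound, because the error of vehicle is counted in it. The gap was widest for Hars, at 1.70 (SE 0.15, adjusted p = 1.55e-28) in shCtrl and 1.73 (SE 0.12, adjusted p = 2.01e-42) in shRai1. Eprs followed among synthetases at 1.31 and 1.42, and Slc7a5 among transporters at 1.23 and 1.59. Ddit4 was lower in BIC than in TTX by -1.33 and -1.40, Dars by -0.71 and -0.82, and Phgdh by -0.52 in shCtrl.

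Knockdown left nearly all members uncalled. In vehicle 2 of 39 were called, where 0.857% of genes were: Cars was higher in shRai1 by 0.32 (SE 0.08, adjusted p = 0.0295), and Trib3 lower, at -0.56 (SE 0.15, adjusted p = 0.0428). With no filter on low counts the call of Trib3 was lost, and at an adjusted p under 0.01 both were. The listed interval of Cars is chr7:150743135-150785995 and that of Trib3 chr2:152163161-152169796, on the mm9 build that the submitters' processing notes name. An unadjusted p under 0.05 was found in vehicle for 5 members (Cars, Aldh18a1, Pycr1, Slc7a1 and Trib3), where 8.17% of genes had one. In TTX 0 of 39 were called, where 0.0283% of genes were. There 3 members had an unadjusted p under 0.05 (Aldh18a1, Slc7a5 and Trib3), where 3.30% of genes did. In BIC 0 of 39 were called, where 0.00944% were. An unadjusted p under 0.05 was found for 4 members, all higher in shRai1 (Sars, Shmt2, Aldh18a1 and Slc7a1), where 2.93% of genes had one. Members that were not called lay between -0.33 and 0.40 in vehicle, -0.27 and 0.34 in TTX, and -0.21 and 0.40 in BIC. Both calls rest on a table without gene names, in which each gene was identified by its mean count.

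The test of the difference between arms was passed by 2 members for TTX, where 1.22% of 15237 genes passed. For BIC 0 members passed, where 0.0263% did. Of the members 1, Trib3, had an unadjusted p under 0.05, where 2.66% of genes did. Among members that did not pass, the SE of the difference ran from 0.09 to 0.59 for TTX and from 0.09 to 0.59 for BIC. How often a real difference in a member would be missed was not tested. A member that did not pass may therefore still differ between arms. Trib3 fell with TTX by 0.41 (SE 0.15, adjusted p = 0.0313) in shCtrl and rose by 0.49 (SE 0.14, adjusted p = 0.00264) in shRai1, a difference of 0.90 (SE 0.21, adjusted p = 0.00485). For Aldh18a1 the difference was -0.47 (SE 0.11, adjusted p = 0.00936).

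The oligodendrocyte lineage markers moved in the same comparisons as Trib3, and are named here after their values were seen. In the knockdown in vehicle 4 of these 6 markers were lower, with Pdgfra, a receptor of precursor cells, at -1.37 and Cspg4, a precursor proteoglycan, at -0.78. Pdgfra was also called in the knockdown in TTX, at 0.50, and in BIC, at -0.90. In the TTX difference between arms 5 of 6 were higher in shRai1, with Pdgfra at 1.86 and Cspg4 at 1.16. The exception was Mbp, a myelin protein of mature cells, at -0.35 (adjusted p = 0.167). The summed level of the list in shCtrl was 148 FPKM in vehicle, 115 in TTX and 134 in BIC, and no marker was at 0. The neuron marker Rbfox3 was also called in the knockdown in vehicle, higher at 0.24 (adjusted p = 0.0494). What part these cells have in the values of Trib3 and Cars was not tested. The knockdown in vehicle and the TTX difference between arms share the vehicle libraries of both arms, of which shCtrl has 2.

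**Figure D5:**
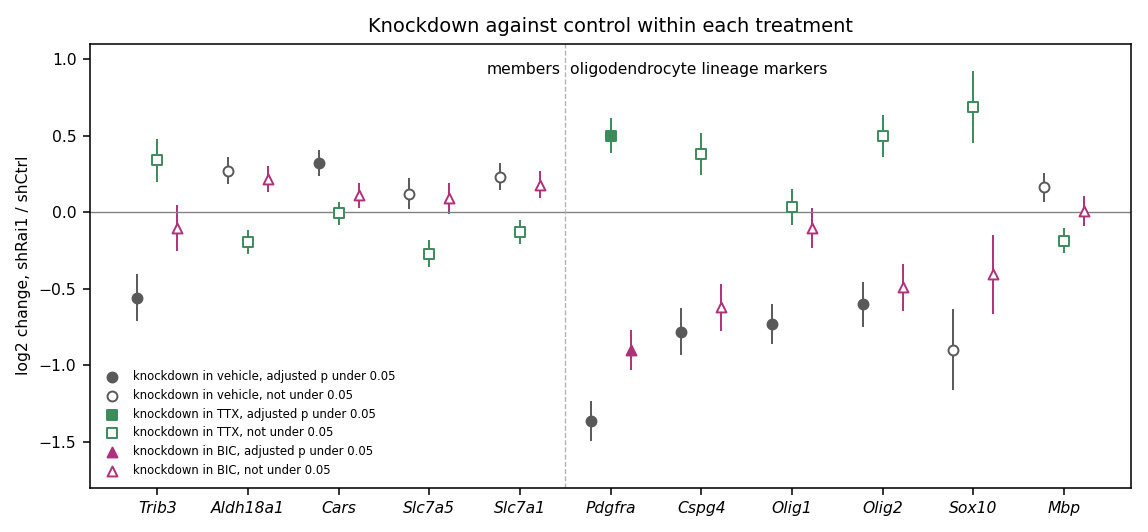
Deposited log2 change between shRai1 and shCtrl within vehicle, TTX and BIC for 5 members (left of the dashed line) and 6 oligodendrocyte lineage markers (right), with bars of 1 SE; filled symbols have an adjusted p under 0.05. Trib3 at -0.56 and all markers but Mbp lie below 0 in vehicle, and Trib3 and the same 5 markers lie above 0 in TTX.

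Upstream of the members, Atf4 itself fell with TTX by 0.71 (SE 0.11, adjusted p = 1.18e-09) in shCtrl and 0.67 (SE 0.10, adjusted p = 4.87e-11) in shRai1. With BIC it had 0.16 (SE 0.12, adjusted p = 0.312) in shCtrl and rose by 0.39 (SE 0.09, adjusted p = 0.000135) in shRai1. ATF4 is controlled largely at translation, which nascent RNA does not measure. Atf3, a stress and activity gene, was called in all 4 comparisons, with log2 changes of -2.54 and -1.50 for TTX and 1.80 and 2.77 for BIC, shCtrl first. Atf5 was not called in these 4 comparisons.

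The counts of the small lists that follow stand beside well measured genes, of which 21.5% rose and 22.1% fell with BIC in shCtrl, and 26.9% and 28.8% in shRai1. With TTX 13.8% rose and 18.2% fell in shCtrl, and 15.6% and 20.7% in shRai1. Of 6 eIF2 alpha kinases and regulators, 2 rose with BIC in shCtrl and 3 in shRai1, and 2 fell with TTX in each arm. Eif2ak3, the kinase PERK that senses misfolded protein, rose with BIC by 0.82 (SE 0.10) in shCtrl and 1.02 (SE 0.08) in shRai1. Eif2ak4, the kinase GCN2 that senses uncharged tRNA, rose by 0.54 and 0.56 and fell with TTX by 0.24 and 0.26. Impact, an inhibitor of GCN2, fell with TTX by 0.67 and 0.36. Both phosphatase subunits fell with TTX in both arms, Ppp1r15a by 0.79 and 0.50 and Ppp1r15b by 0.61 and 0.65. Ppp1r15a, the inducible subunit GADD34, had 0.33 (adjusted p = 0.165) with BIC in shCtrl and rose by 0.82 in shRai1. Ppp1r15b, the constitutive subunit, rose with BIC by 0.28 and 0.55. Of 8 subunits of eIF2 and its exchange factor eIF2B, 2 rose with BIC in shCtrl, a share near that of well measured genes, and in shRai1 4 rose and 1 fell. Eif2s2, the beta subunit of eIF2, rose by 0.75 and 0.78, and Eif2b3, the gamma subunit of eIF2B, by 0.45 and 0.50.

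Of 8 other genes named as ATF4 targets, 3 rose with BIC and 1 fell in each arm. Stc2, a secreted glycoprotein, fell with TTX by 1.31 (SE 0.18) in shCtrl and 1.28 (SE 0.15) in shRai1 and rose with BIC by 0.80 and 0.97. Sesn2, a leucine sensor, rose with BIC by 0.66 and 0.75. Vldlr, a lipoprotein and reelin receptor, rose with both drugs, by 0.52 and 0.42 with TTX and by 0.29 in each arm with BIC. Gpt2, a mitochondrial alanine aminotransferase named after its values were seen, was the gene that fell with BIC, by 0.32 and 0.26.

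Mitochondrial tRNA synthetases are made from their own nuclear genes in most cases. Of 17 on the list 16 had a test, and Lars2 was not analysed here. Of the 16, 0 rose with BIC in either arm, while 4 fell in shCtrl, a share near that of well measured genes, and 6 fell in shRai1, and their median log2 changes were -0.25 and -0.26. The cytosolic medians were 0.26 and 0.21, and the difference between the lists was not tested. Fars2, for phenylalanine, fell with BIC by 0.86 (SE 0.11) in shCtrl and 0.85 (SE 0.09) in shRai1. Cars2, for cysteine, fell by 0.59 and 0.53, whereas its cytosolic counterpart Cars rose. Of 3 scaffold proteins that hold cytosolic synthetases in a complex, 0 rose with BIC in either arm. Aimp2 among them fell with TTX in both arms, by 0.45 and 0.65, and with BIC in shRai1, by 0.42.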

How the data were processed

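Reads were aligned by the authors with TopHat2 2.1.0 and Bowtie2 2.2.6 to mm9, per the submitters' processing notes. The submitters' notes also name DESeq2, and the comparison tables carry its name and columns, per the file headers. They hold a mean normalized count, a signal the authors averaged over libraries; a log2 fold change with its SE; the Wald score of the authors' test; and a p-value with its adjusted form, per the file headers. Pooled FPKM with bounds is given by the authors per condition, per the file headers; the 9 columns for shRai1 cultures, bounds included, were left out because their names disagreed with the comparison tables.

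No per-library values were used, so depth per library is not given in the sources used here, and the tests per library planned at the outset gave way to the deposited ones. One table, that of shRai1 against shCtrl in vehicle, lists no genes: 20107 rows were named by a unique mean count, and their log2 changes closed with those of the other tables to 1.0e-09. The same step, tried on a table that does list genes, recovered 20107 of 20107. Averages, differences between arms and BIC minus TTX were computed here with errors added in quadrature, two-sided Wald tests and Benjamini-Hochberg adjustment over 15237 genes with a mean count of at least 10 (Python 3.11.15, pandas 2.3.3, SciPy 1.17.1). These tests take the deposited SE as right, which was not tested. Some promoter windows are not reported here. A further 12 samples, of ChIP-seq, were not analysed.

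The members and gene lists were chosen with earlier results of these data known. Every member is accounted for, and statistics are given for those called in at least 1 contrast. Other pathway genes are named only where called and among the 3 largest averaged responses of their list, apart from those said to be named after their values were seen, beside Atf3, Atf4, Atf5, Ppp1r15a and Rai1. Alternatives were adjusted p under 0.01 or 0.1, no filter on counts, a mean count of at least 50, centring on the median gene, and FPKM ratios with pseudocounts of 0.1 and 1.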

Additional observations from a re-analysis of the deposited data

Results flagged for a closer look

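Trib3 and Aldh18a1 stood out because their responses to TTX differed between arms by a test of the difference itself. For Trib3, shRai1 minus shCtrl was 0.90 on the log2 scale (SE 0.21, 95% interval 0.49 to 1.30, adjusted p = 0.00485), with a fall in shCtrl and a rise in shRai1. For Aldh18a1 it was -0.47 (SE 0.11, 95% interval -0.69 to -0.24, adjusted p = 0.00936), with a called fall in shRai1. Without values per library, the number of libraries showing each direction cannot be given.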

How the results depend on the processing

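Over 13 comparisons and 5 alternatives each, 63 of 65 counts of called members were within 1.5 times the value given. The exceptions were both for the knockdown in vehicle, where the count of 2 became 0 at an adjusted p under 0.01 and 1 with no filter on low counts. This tally includes counts of 0 that stayed 0, for the knockdown in TTX and in BIC and the BIC difference between arms. It also takes both directions together. The 4 members that fell with BIC in shCtrl became 2 at an adjusted p under 0.01. Centring kept the direction and call of all 81 single changes that were called in the 7 deposited comparisons. The median taken off was small, at -0.04 for BIC and -0.01 for TTX in shCtrl, so this check was a weak one. As log2 ratios of pooled FPKM for BIC in shCtrl, 5 of the 24 called members changed sign. At pseudocounts of 0.1 and 1 these were Gars at -0.13 and -0.12, Psat1 at -0.15 and -0.15, Lars at -0.010 and -0.0093, Yars at -0.24 and -0.23, and Ddit3 at 0.11 and 0.10. Of all 36 changes called in shCtrl, 20 more moved by over 1 SE without changing sign at either pseudocount, and 11 did not. Where the sign was the same, the FPKM ratio was the smaller in 15 of 19 members for BIC, a higher share than the 64.3% of called genes. For TTX it was the smaller in 9 of 12, near the 75.6% of called genes. The cause was not tested. Over all well measured genes 504 of 5363 called ones (9.40%) changed sign in the same way, and for TTX 0 of 12 members and 332 of 3942 genes (8.42%) did. No paired analysis was possible because the files used give no value per library, and leaving out each library in turn was not run for the same reason. Groups of 2 libraries, as in shCtrl vehicle and BIC, limit the precision of the shCtrl values. Motifs were searched by exact letters only.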

Other observations

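Genes of the unfolded protein response of the endoplasmic reticulum moved in both directions. Of 12, 4 rose and 2 fell with BIC in shCtrl, where 21.5% of well measured genes rose and 22.1% fell. In shRai1 7 rose and 0 fell, where 26.9% rose and 28.8% fell. Atf6, a membrane-bound sensor of misfolded protein, rose by 1.30 (SE 0.08) in shCtrl and 1.35 (SE 0.07) in shRai1, as the authors' deposited tables give it. Sdf2l1, a chaperone cofactor with a mean normalized count of 46.7, rose by 1.09 and 1.56, and Dnajb9, another cofactor, by 0.55 and 0.81. The 2 that fell with BIC in shCtrl were the chaperones Hsp90b1, by 0.61, and Calr, by 0.43, the latter named after its values were seen. With TTX 4 of the 12 fell in shCtrl and 6 in shRai1, where 18.2% and 20.7% of well measured genes fell, and Hsp90b1 fell by 0.75 and 0.41. With BIC in shRai1 Hsp90b1 had -0.11 (adjusted p = 0.352). In the knockdown in vehicle 2 of the 12 were called, where 0.857% of genes were, both lower in shRai1: Hspa5 at -0.36 (named after its values were seen) and Hsp90b1 at -0.37. The knockdown in vehicle and both drug responses in shCtrl share the 2 shCtrl vehicle libraries.

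Motifs other than the composite element were also counted in the 31 members with a promoter entry, on both strands. The cAMP response element TGACGTCA was in 0 of 31, against 1.79% of all promoters and 3.78% of well measured genes with a promoter entry. The E-box CACGTG was in 6 of 31 (19.4%): Aars, Farsb, Iars, Tars, Aldh18a1 and Nupr1. Beside that, it was in 7.15% of all promoters and 11.8% of well measured genes with a promoter entry. These counts describe letters in this window.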
